A study of Mus musculus with 8 samples.

Results

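The miRNAs described here are the mature arms of the miR-142, miR-146a, miR-146b, miR-150, miR-155, miR-223 and miR-342 hairpins in mouse sperm RNA, all of them known chiefly from white blood cells. They were picked by name, and 11 of the 387 mature miRNAs in the count table matched, among them mmu-miR-142-5p, mmu-miR-150-5p, mmu-miR-146a-5p, mmu-miR-342-3p and mmu-miR-342-5p. The species prefix is left out from here on. The set was proposed when counts and fold changes of these libraries were already known, so its fold changes are a description and support nothing. Small RNA was sequenced in 8 sperm libraries from C57BL/6 animals of 2 months, 4 named Exposed and 4 named Trained. The study asked about sperm miRNA after treatments tied to smell, the heading of the deposited table calls the second group AceTrained, and the labels say no more about either treatment. No untreated group was analysed here. How the sperm were isolated, and whether a library holds 1 animal or several, is not given in the sources used here, so each test speaks only of variation among these libraries, part of which may be technical.

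miRNAs are cut from a hairpin with a 5p and a 3p arm, and usually one arm is kept and guides repression of messenger RNAs that pair with its seed, bases 2 to 8. miR-142 is found across the blood lineages. miR-150 marks mature lymphocytes and represses Myb, and miR-342 is cut from an intron of Evl and is found in lymphoid and other blood cells. miR-223 belongs to granulocytes and monocytes, where the 3p arm is the one usually kept. miR-146a, miR-146b and miR-155 are switched on by NF-kB signalling. miR-146a represses the signalling proteins Traf6 and Irak1, and miR-146a and miR-146b are also made outside the blood.

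The mature sequences of the measured arms are shown because the results turn on which arm carried the reads and on which members share a seed. The seed is in capitals, the sequences are those of RefSeq on GRCm38.p6, and 10 of the 11 members were matched. miR-150-5p is named only.
miR-142-5p: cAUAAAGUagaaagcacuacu
miR-142-3p: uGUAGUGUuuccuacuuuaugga
miR-150-3p: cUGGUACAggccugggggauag
miR-342-5p: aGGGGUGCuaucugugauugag
miR-342-3p: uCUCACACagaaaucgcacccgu
miR-223-5p: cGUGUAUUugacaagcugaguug
miR-223-3p: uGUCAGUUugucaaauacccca
miR-146a-5p: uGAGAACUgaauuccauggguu
miR-146b-5p: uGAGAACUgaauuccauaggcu
miR-155-5p: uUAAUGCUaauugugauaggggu
miR-146a-5p and miR-146b-5p share the seed GAGAACU. Counted from 1 at the 5′ end, with the miR-146a base first, they differ by G18A and U21C, so reads that end early cannot be told apart and the split between them is uncertain. No other pair among the 312 table entries with a matched sequence had the seed of a member.

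The hairpins of miR-342 and miR-223 are shown with both arms in capitals, 5p first, because the balance of reads between their arms is described further on and both arms of a pair are cut from the 1 precursor.
Mir342: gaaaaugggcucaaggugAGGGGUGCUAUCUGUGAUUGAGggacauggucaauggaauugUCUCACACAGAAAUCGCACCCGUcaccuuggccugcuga
Mir223: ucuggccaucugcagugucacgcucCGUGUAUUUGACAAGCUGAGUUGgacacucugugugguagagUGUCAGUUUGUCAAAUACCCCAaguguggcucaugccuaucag
In GRCm38, Mir342 occupies chr12:108658620-108658718 on the plus strand within an intron of Evl, and Mir223 occupies chrX:96242817-96242926 on the plus strand within an exon of the non-coding gene F630028O10Rik. Mir142 at chr11:87756864-87756927 is in an intron of its host transcript Mir142hg. On the other strand it is covered by Mir142b, so reads of the 2 could be told apart only by strand, and the counting is not described in the sources used here. Mir155 at chr16:84714140-84714204 is in an exon of Mir155hg, and Mir146b at chr19:46342762-46342870 is in an intron of Mfsd13a. Neither Mir146 (chr11:43374397-43374461) nor Mir150 (chr7:45121757-45121821) overlaps another annotated gene.

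The libraries held 193013 to 261903 counts, so 1 read was worth 3.82 to 5.18 CPM (reads scaled by the library total), and a count of 0 allows up to 3 reads. The 14 male germ cell miRNAs listed, such as miR-34c-5p and miR-881-3p, summed to between 311470 CPM in Trained 3 and 367819 CPM in Trained 2. Their abundance goes with the labelled tissue. The 11 leukocyte miRNAs together held 0.581% of all counts. Levels are given as CPM of the library total, without further scaling. The arms are 21 to 23 bases long, so reads were not scaled by length.

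miR-146a-5p was the most abundant member at 2884 ± 1166 CPM (SD, n = 8), 54th in the table, and it exceeded the next member in 8 of 8 libraries. miR-142-5p followed at 1131 ± 750.4 CPM and was above miR-146b-5p, at 759 ± 79.1 CPM, in 7 of 8 libraries. miR-146b-5p was in turn above miR-150-5p, at 574 ± 557 CPM, in 6 of 8. Neither pair of neighbours differed in the same direction in every library. miR-142-3p stood at 204 ± 69.7 CPM, below miR-150-5p and above miR-342-5p in 8 of 8 libraries. The miR-342 arms were alike in level, at 77.8 ± 12.5 CPM for 5p and 70.2 ± 23.9 CPM for 3p, and 5p was the higher in 6 of 8. miR-223-5p (32.4 ± 17.7 CPM), miR-155-5p (19.8 ± 13.3) and miR-150-3p (16.8 ± 16.8) overlapped. miR-223-3p was last, at 6.47 ± 4.02 CPM, 372nd of 387.

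**Figure D1:**
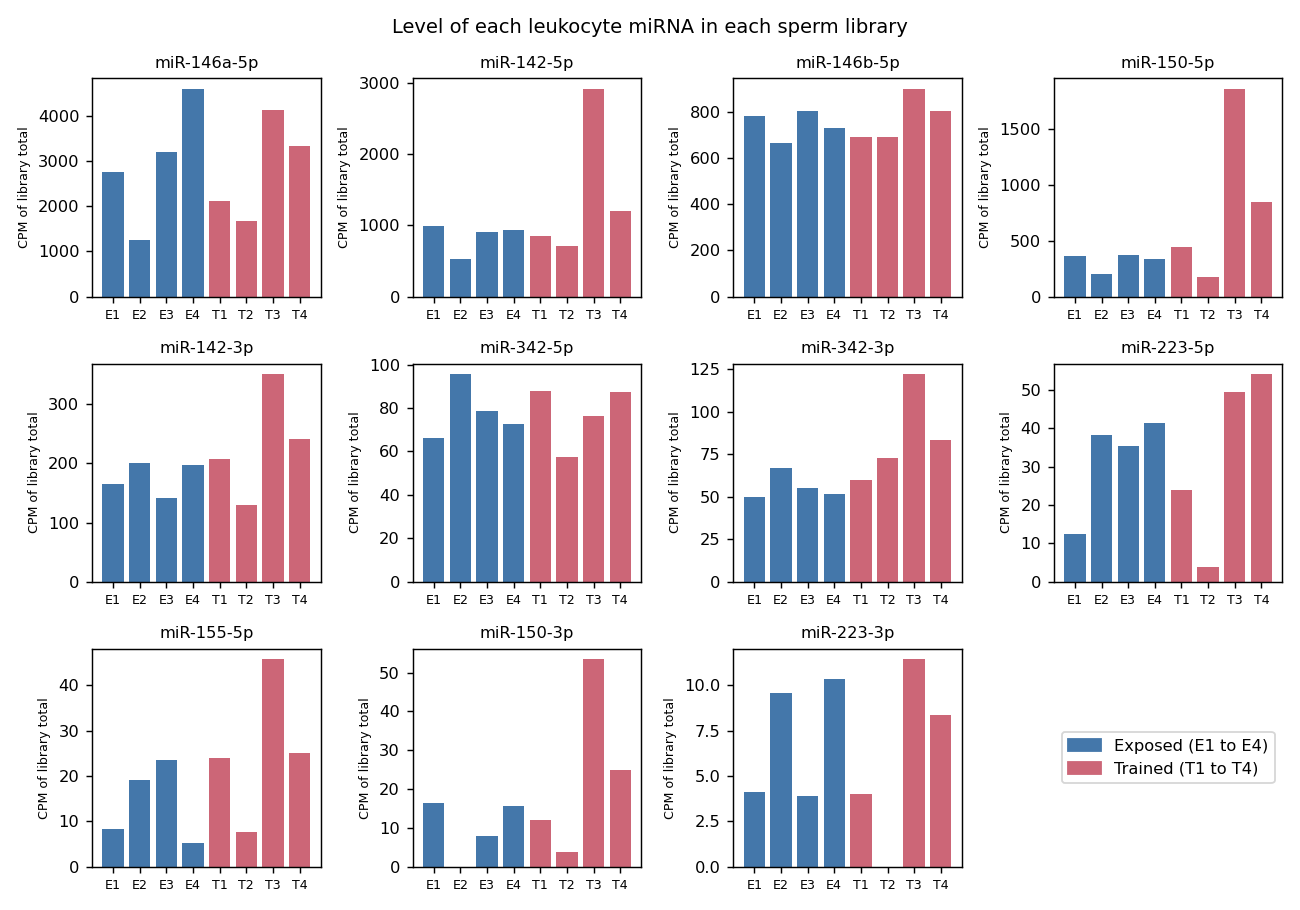
Bars give the CPM of the library total of each of the 11 miRNAs in each library, in order of mean level, with Exposed in blue and Trained in red and a separate axis from 0 in each panel. Trained 3 is the highest library in 8 of the 11 panels, as it is for 115 of the 387 miRNAs in the table and all 6 of the red blood cell list, and miR-342-5p is the flattest of the low members.

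Among lymphoid miRNAs, miR-150-5p had 360 CPM, 206 CPM, 369 CPM and 337 CPM in Exposed 1 to 4, and 439 CPM, 176 CPM, 1856 CPM and 847 CPM in Trained 1 to 4. Trained 3 was 5.16 times the median of the other 7 libraries. Trained 2 was the lowest of all 8, so the groups overlap, although 3 Trained libraries stood above every Exposed one. The means were 318 ± 75.8 CPM in Exposed and 829.6 ± 738 CPM in Trained (SD, n = 4 each), and the Trained mean was 488 ± 338 CPM (SD, n = 3) without Trained 3. Its other arm, miR-150-3p, had 0 to 4 reads in each Exposed library and 1 to 14 in each Trained library, the most again in Trained 3. In Exposed 2 its count of 0 allows up to 14.4 CPM.

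miR-342-3p had 49.6 CPM, 67.0 CPM, 54.9 CPM and 51.8 CPM in Exposed 1 to 4, and 59.9 CPM, 72.9 CPM, 122 CPM and 83.5 CPM in Trained 1 to 4. Of the Trained libraries 3 stood above the highest Exposed library, Exposed 2, and Trained 1 was below it. These values rest on 10 to 32 reads per library. miR-342-5p, from the same hairpin, had 66.1 CPM, 95.7 CPM, 78.4 CPM and 72.5 CPM in Exposed and 87.8 CPM, 57.5 CPM, 76.4 CPM and 87.6 CPM in Trained. Neither group was the higher, and the highest library was Exposed 2, not Trained 3.

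The arms of miR-342 thus held almost equal numbers of reads when the libraries were pooled. Over the 8 libraries 136 of 284 miR-342 reads were 3p, a share of 47.9% (95% Wilson interval 42.1 to 53.7%; such intervals cover counting error only). The 3p share was 42.9%, 41.2%, 41.2% and 41.7% in Exposed 1 to 4 and 40.5%, 55.9%, 61.5% and 48.8% in Trained 1 to 4. The Exposed shares ran from 41.2 to 42.9% only, although the interval of Exposed 4 alone ran from 24.5 to 61.2%. Trained 1 was below all 4, and the other 3 Trained libraries were above them. The mean share was 41.7% ± 0.793 in Exposed and 51.7% ± 9.08 in Trained (SD, n = 4 each). The interval of the pooled reads was 33.2 to 50.6% in Exposed and 44.8 to 59.9% in Trained, so the intervals overlap.

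**Figure D2:**
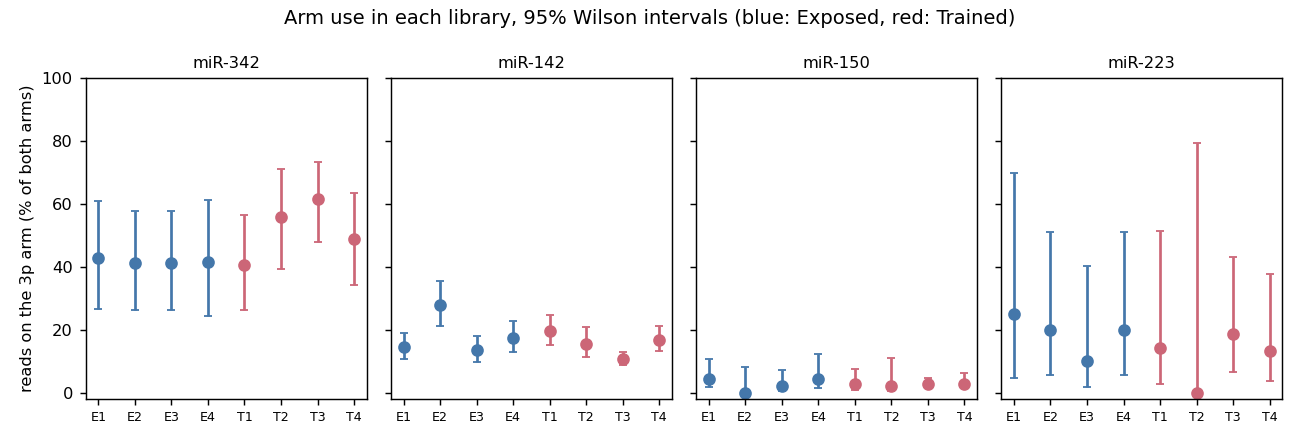
Points give the percentage of a hairpin's reads on the 3p arm in each library with 95% Wilson intervals, Exposed in blue and Trained in red. miR-342 lies between 40.5% and 61.5%, miR-142 between 10.7% and 27.8%, miR-150 at or below 4.41%, and miR-223 has intervals too wide to order its libraries.

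miR-142, shared by the blood lineages, had most of its reads on the 5p arm. miR-142-5p had 988 CPM, 522 CPM, 914 CPM and 938 CPM in Exposed 1 to 4 and 854 CPM, 706 CPM, 2921 CPM and 1202 CPM in Trained 1 to 4. Exposed 2 and Trained 2 were the low libraries and Trained 3 the high one. miR-142-3p had 165 CPM, 201 CPM, 141 CPM and 197 CPM in Exposed and 208 CPM, 130 CPM, 351 CPM and 242 CPM in Trained. The 3p arm was not low in Exposed 2, which was the highest Exposed library for it. The 3p share there was 27.8% (21.3 to 35.4%), and it was 10.7% (8.84 to 13.0%) in Trained 3. These intervals do not overlap each other. The share of both groups together was 15.0% (13.7 to 16.5%) of 2605 reads, with means of 18.2% ± 6.62 in Exposed and 15.7% ± 3.68 in Trained.

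The granulocyte and monocyte miRNA miR-223 was close to the floor. miR-223-3p, the arm that defines those cells, had 1, 2, 1 and 2 reads in Exposed 1 to 4 and 1, 0, 3 and 2 reads in Trained 1 to 4. Its count of 0 in Trained 2 allows up to 11.5 CPM. miR-223-5p had 3, 8, 9 and 8 reads in Exposed and 6, 1, 13 and 13 reads in Trained. The 5p arm led in every library, and 3p made up 12 of 73 reads, 16.4% (9.66 to 26.6%). No difference between the groups was detectable at this depth. The defining arm of the myeloid class was thus at or near 0 in every library.

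miR-146a-5p, which dampens NF-kB signalling, had 2762 CPM, 1259 CPM, 3197 CPM and 4601 CPM in Exposed 1 to 4. It had 2116 CPM, 1676 CPM, 4135 CPM and 3330 CPM in Trained 1 to 4. The highest and the lowest library were both Exposed, and the means were 2955 ± 1376 CPM and 2814 ± 1124 CPM (SD, n = 4 each). miR-146b-5p, with the same seed, stayed between 665 and 804 CPM in Exposed and between 690.5 and 901 CPM in Trained. miR-155-5p, made in activated lymphocytes and macrophages, had 1 to 6 reads in Exposed and 2 to 12 in Trained, most in Trained 3. miR-146a-3p, miR-146b-3p and miR-155-3p were not analysed here.

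Lymphoid miRNAs, taken as the arms of miR-150 and miR-342, outnumbered myeloid ones, taken as the arms of miR-223, in every library. There were 1451 lymphoid and 73 myeloid reads in all, and 1134 of the lymphoid reads were of miR-150-5p. Because miR-342 is also found in other blood cells, the shares compare named arms and are not a ratio of cell types. The myeloid share of the 2 was 3.25%, 11.5%, 7.14% and 9.80% in Exposed 1 to 4 and 4.46%, 1.22%, 2.82% and 5.66% in Trained 1 to 4. The group means were 7.92% ± 3.59 and 3.54% ± 1.94 (SD, n = 4 each), and the libraries overlap. The lymphoid sum was 369 to 509.9 CPM in Exposed and 311 to 2108 CPM in Trained, and the myeloid sum was 16.5 to 51.8 CPM and 3.84 to 62.6 CPM. The mean myeloid sum was 38.9 CPM in each group. The mean lymphoid sum was 462 ± 63.6 CPM in Exposed and 1015 ± 788 CPM in Trained (SD, n = 4 each). Of the members' reads, the miR-146a, miR-146b and miR-155 class held a median of 65.2%, the miR-142 arms 22.8%, the lymphoid class 10.7% and the myeloid class 0.658%. In bulk RNA, fewer cells of a type and less RNA per cell cannot be told apart.

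**Figure D3:**
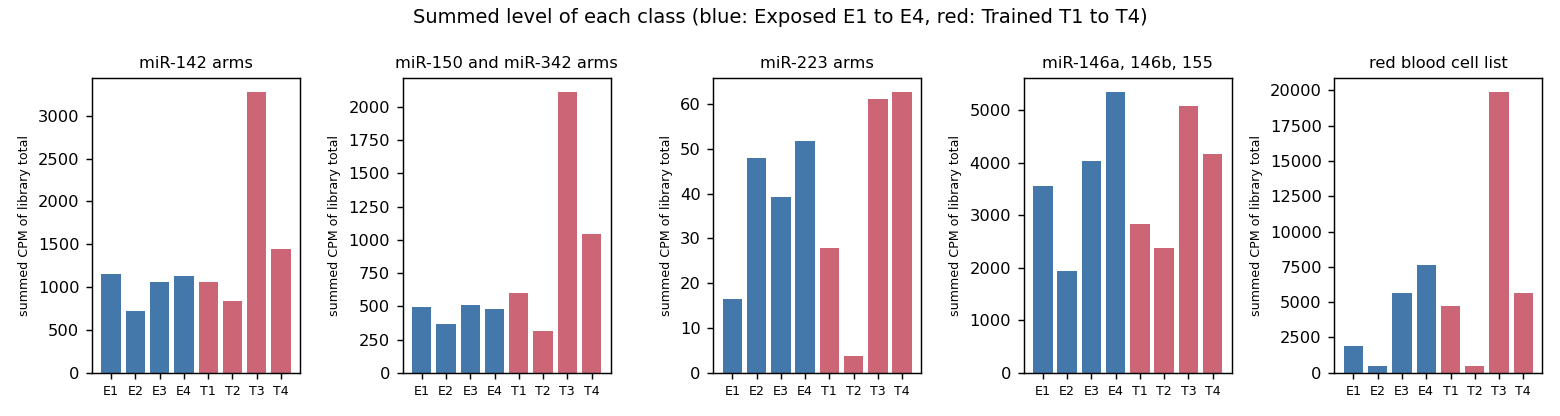
Bars give summed CPM of the library total per library for the 4 classes of leukocyte miRNA and for the red blood cell list, each on its own axis from 0. Trained 3 is the highest library for the miR-142 arms (3272 CPM), the lymphoid arms (2108 CPM) and the red blood cell list (19847 CPM), and Trained 2 is the lowest for the lymphoid and myeloid classes and the red blood cell list.

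Markers of red blood cells moved with these libraries. The 6 listed ones, among them miR-451a and miR-144-3p and led by miR-3107-5p, an older name of a miR-486 copy, summed to 455 to 7606 CPM in Exposed and 449 to 19847 CPM in Trained. None was at 0 in any library. Whether reads of miR-3107-5p were also counted as miR-486-5p is not given. Without miR-3107-5p the sum was 239 to 4233 CPM in Exposed and 246 to 11772 CPM in Trained. Exposed 2 and Trained 2 were the lowest libraries of their groups, and Trained 3 was the high one. The same 2 were lowest of their groups for miR-142-5p, miR-150-5p, miR-146a-5p, miR-146b-5p and the low miR-150-3p. Other members went otherwise. miR-142-3p (201 CPM), miR-342-3p (67.0 CPM) and miR-342-5p (95.7 CPM) had their highest Exposed level in Exposed 2. miR-155-5p and both miR-223 arms were not lowest there either. Exposed 4, the highest library for miR-146a-5p, had the most red blood cell miRNA of its group. Trained 3 also had the lowest sum of germ cell miRNAs, in which the abundant miR-34c-5p and miR-881-3p weigh most. Those 2, miR-741-3p, miR-880-3p, miR-470-5p and miR-463-3p were lowest there. The other germ cell miRNAs listed were not, and miR-34b-5p was highest there, at 15655 CPM. The sum of the 2 endothelial and platelet arms of miR-126a went otherwise, at 252 to 445 CPM in Exposed and 210.0 to 300.4 CPM in Trained, with Trained 3 the lowest. That was the pattern of the 3p arm, at 168 CPM in Trained 3. The 5p arm had 42.0 CPM in Trained 3 and was lowest in Exposed 4, at 31.1 CPM. The part of blood in the leukocyte values was not tested. Of the other tissues listed, striated muscle (4 listed, led by miR-1a-3p), smooth muscle and stroma (6, led by miR-143-3p) and epithelium (5, led by miR-200c-3p) also had their lowest sum in Trained 3. Their highest sum was in Exposed 2, the library lowest for miR-142-5p and miR-146a-5p. The sums weigh the abundant members most, and many listed miRNAs did not follow them. In epithelium only miR-200c-3p was itself lowest in Trained 3. In smooth muscle and stroma only miR-143-3p and miR-199a-5p were, and in striated muscle only miR-206-3p and miR-133a-3p. miR-199a-3p, 1 of the 6 of smooth muscle and stroma, was highest in Trained 3. miR-499-5p of striated muscle was lowest in Exposed 2.

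Trained was compared with Exposed by edgeR's quasi-likelihood test over the 226 miRNAs that passed the count filter, 7 of them members. None of the 7 passed a false discovery rate (FDR) of 0.05, against 0 of 226 (0%) over the table. An unadjusted p under 0.05 was found for 1 member and for 10 miRNAs in all (4.42%), 9 of them lower in Trained (3.98%), and DESeq2 and limma-voom gave 0 at FDR 0.05 with 12 and 9 at an unadjusted p under 0.05. miR-150-5p had a log2 fold change of 1.35 (SE 0.65, 95% interval -0.17 to 2.87, FDR = 0.998, edgeR). That of miR-342-3p was 0.57 (SE 0.24, interval 0.03 to 1.11, unadjusted p = 0.0417, FDR = 0.998, edgeR). miR-342-3p was the 1 miRNA of 226 with an unadjusted p under 0.05 on the higher side (0.442%), a count known when the set was proposed. That split of 1 higher and 9 lower belongs to this fit, since with no filter it was 4 and 14, and without Trained 2 it was 7 and 3. For miR-142-5p and miR-142-3p the values were 0.73 (SE 0.46) and 0.38 (SE 0.28). Near 0 were miR-146a-5p (-0.10, SE 0.42), miR-342-5p (-0.05, SE 0.23) and miR-146b-5p (0.02, SE 0.13), all with an FDR = 0.998 by edgeR.

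The values of miR-150-5p, miR-342-3p and both miR-142 arms leaned most on Trained 3. When that library was left out, miR-150-5p stood at 0.61 on the log2 scale and miR-342-3p at 0.36. miR-142-5p then stood at 0.13, miR-142-3p at 0.14, miR-146a-5p at -0.32 and miR-146b-5p at -0.04. By contrast, miR-146a-5p moved furthest without Exposed 4, to 0.21, and miR-146b-5p without Trained 2, to 0.09. The median of the 7 was 0.38 with all libraries and 0.13 without Trained 3, beside 0.00 and 0.01 over all tested miRNAs. Of the 7, 5 had higher and 2 had lower fitted values in Trained, against 117 and 109 of the 226. The libraries of the groups overlapped for all 11 members, while they did not overlap for 5 of the 226 tested (2.21%). With no filter, the 4 low members had log2 fold changes of 1.18 (miR-150-3p), 0.79 (miR-155-5p), 0.04 (miR-223-5p) and -0.17 (miR-223-3p), with an FDR = 0.998 in each case by edgeR.

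**Figure D4:**
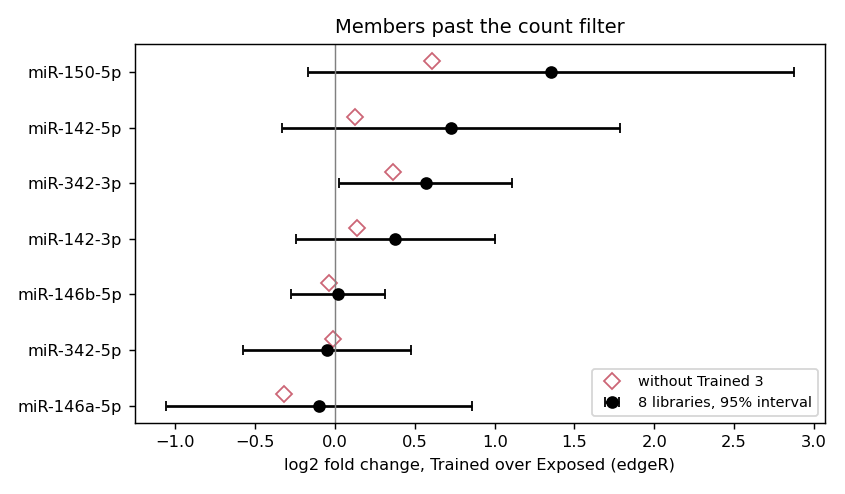
Points and bars give the log2 fold change, Trained over Exposed, and its 95% interval for the 7 members that passed the count filter, and diamonds the value without Trained 3. The interval of miR-342-3p runs from 0.03 to 1.11 and those of the other 6 include 0.

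In the authors' deposited table, miR-150-5p had a log2 fold change of 1.31 with p = 0.00874 and FDR = 0.376 (edgeR), the smallest p of any member. The same member had an unadjusted p = 0.0745 by the quasi-likelihood test here. In the authors' deposited table miR-342-3p had p = 0.101, where the test here gave 0.0417, so the order of the 2 members depends on the fit. Over its 387 miRNAs, 0 passed FDR 0.05 in the authors' deposited table, and 20 had an unadjusted p under 0.05, 8 higher and 12 lower in Trained, of which 1 was a member.

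The members differed widely in how much they varied between libraries of the same group. Spread beyond counting error was estimated by edgeR's biological coefficient of variation. That estimate borrows from the other miRNAs, so it is above 0 even where counting noise would suffice. By it, miR-150-5p ranked 7th of 226 at 0.613, miR-142-5p 8th at 0.459 and miR-146a-5p 10th at 0.420. The 6 miRNAs ranked above miR-150-5p were the 6 of the red blood cell list. miR-142-3p ranked 32nd (0.274) and miR-146b-5p 85th (0.194), near the median of 0.183 over all tested miRNAs. The miR-342 arms ranked 110th (0.184) and 197th (0.133). Counting noise alone gives a chi-square per degree of freedom of about 1 within groups. It was 123 for miR-146a-5p, 101 for miR-142-5p and 86.9 for miR-150-5p, while the arms of miR-342 were near counting noise at 0.562 (5p) and 1.21 (3p), as was miR-223-3p at 0.745. miR-146a-5p and miR-146b-5p, which share a seed, thus differed in spread, with a highest over lowest library of 3.65 and 1.35. For the same relative spread the chi-square grows with the read count, so it does not rank members of unlike depth. miR-146a-5p had 5482 reads, the miR-342 arms 148 (5p) and 136 (3p), and miR-223-3p 12. Values near 1 in members with so few reads do not show that they were stable.

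**Figure D5:**
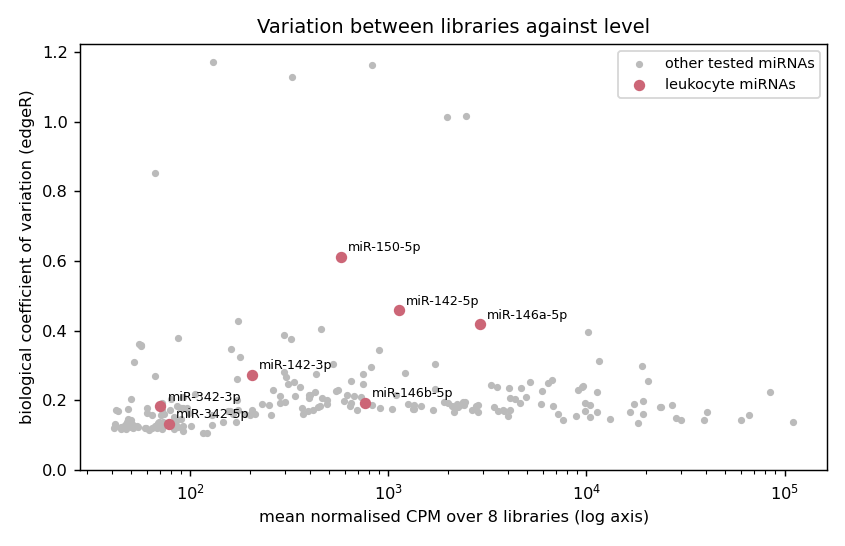
Each point is 1 of 226 tested miRNAs, with the mean normalised CPM over 8 libraries on a log axis and edgeR's biological coefficient of variation on the other axis. miR-150-5p (0.613), miR-142-5p (0.459) and miR-146a-5p (0.420) lie above most miRNAs of their level, and the 6 points above miR-150-5p are the red blood cell list.

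Other miRNAs known from immune cells, from a list drawn up with earlier results known, were set beside the members. Of 7 listed, 5 were tested, 0 passed FDR 0.05, and 4 had higher and 1 lower fitted values in Trained (median log2 fold change 0.14, and 0.08 without Trained 3). miR-181a-5p, which tunes lymphocyte receptor signalling, had 335 CPM, 316 CPM, 349 CPM and 466 CPM in Exposed 1 to 4 and 399 CPM, 207 CPM, 977 CPM and 605 CPM in Trained 1 to 4, a log2 fold change of 0.55 (SE 0.40) and 0.14 without Trained 3. It was high and low in the same Trained libraries as miR-150-5p. The most abundant of the list, miR-21a-5p, made in many tissues, stood at -0.03 (SE 0.12).

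Likeness of pattern was measured by Pearson's r of log2 normalised CPM over the 8 libraries, each member against the other 225 tested miRNAs. These are the highest of many values over the same libraries, so they carry no p. Closest to miR-150-5p were miR-181a-5p (r = 0.95, rho = 0.857), miR-142-5p (0.94, 0.81) and miR-423-3p (0.89, 0.69). Without Trained 3 and Trained 4, the libraries farthest from the median, r was 0.78, 0.76 and 0.75. miR-142-5p was closest to miR-26b-5p (r = 0.98, and 0.90 without Exposed 2 and Trained 3), let-7i-5p (0.95 and 0.58) and let-7d-5p (0.95 and 0.56). miR-142-3p, the other arm of that hairpin, was closest to miR-1198-5p (0.96), miR-181a-5p (0.92) and miR-181b-5p (0.90), and its r with miR-142-5p was 0.73. Without the libraries farthest from the median, that r was 0.01 by the libraries of miR-142-3p (Trained 2 and Trained 3) and 0.70 by those of miR-142-5p (Exposed 2 and Trained 3).

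miR-146a-5p was closest to miR-27a-5p (r = 0.98, and 0.98 without Exposed 2 and Trained 2), miR-16-1-3p (0.90 and 0.78) and the red blood cell miRNA miR-144-3p (0.89 and 0.58). miR-146b-5p was closest to miR-1843a-5p (0.92), let-7f-5p (0.92) and let-7g-5p (0.89). For the low miR-342-3p the best were miR-186-5p (0.84), miR-30c-5p (0.83) and miR-30b-5p (0.74), and the first fell to -0.09 without Trained 3 and Trained 4. For miR-342-5p they were miR-21a-5p (0.82), miR-30d-5p (0.74) and miR-99a-5p (0.71, and -0.11 without Exposed 2 and Trained 2). The arms of miR-342 had an r of 0.10 with each other.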

How the data were processed

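RNA was extracted with the Qiagen miRNeasy kit and sequenced as 50 nt single-end reads, per the labels' protocols. The authors deposited unnormalised read counts for each mature miRNA. How reads were trimmed, aligned and assigned, and to which build, is not given in the sources used here. Beside the counts, the authors deposited log2 fold changes with average log2 CPM, p-values with FDR, and mean counts per group, used as a score. The submitters' processing notes name edgeR.

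Groups and replicate numbers come from the sample titles. Members were found by name, and members, classes and lists were chosen with earlier results of these data known. The lymphoid class is the arms of miR-150 and miR-342, the myeloid class those of miR-223. All members were named, with the 3 most alike miRNAs of each tested one. The test was edgeR 4.0.16 (R 4.3.3; TMM factors, default filter by group, robust quasi-likelihood F test, two-sided, Benjamini-Hochberg adjustment). Of the 387 miRNAs, 226 passed that filter, and the other 161 held 0.258% of counts. The method was run on 5 simulated data sets in which 40 miRNAs were changed 4-fold, which does not speak of smaller changes. Levels are CPM of the library total, and fold changes and likeness use TMM. The standard error is the fold change over the t quantile of its p-value. Shares have 95% Wilson intervals (scipy 1.17.1). Other settings were RLE factors, library totals, no filter, 10 CPM in 4 libraries, DESeq2 1.42.0, limma-voom 3.58.1, the replicate block and each library left out. Precision is limited by 193013 to 261903 counts per library. No molecular identifiers are described, so counts are reads and not molecules.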

Additional observations from a re-analysis of the deposited data

Results flagged for a closer look

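miR-142-5p stood at 522 CPM in Exposed 2, far below the other 3 Exposed libraries (914 to 988 CPM). It is listed because its gap to the nearest library exceeds the 95% critical value of Dixon's test for 4 samples. It was 1 of 40 groups of values checked, and chance gives about 1 in 20.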

How the results depend on the processing

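The count past FDR 0.05 was 0 under every setting run (other factors, filters and tools, the replicate block, each library left out), with 5 to 18 miRNAs at an unadjusted p under 0.05. The signs of miR-150-5p, miR-342-3p and both miR-142 arms held under these settings. When 1 library was left out, their log2 fold changes ran from 0.61 to 1.70, 0.36 to 0.71, 0.13 to 0.97 (miR-142-5p) and 0.14 to 0.60 (miR-142-3p). The sign turned for miR-146a-5p (-0.35 to 0.21), miR-146b-5p (-0.0381 to 0.0909) and miR-342-5p (-0.12 to 0.10), and the cause was not tested. The mean 3p share of miR-342 ran from 41.3 to 41.9% in Exposed and 48.4 to 55.4% in Trained. TMM factors, or totals without red blood cell miRNAs, moved mean class levels by less than the spread between libraries.

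Same-numbered libraries deviated together in 3 of 4 pairs (r of 0.66, 0.69 and 0.49) but not in the first (-0.41). These values cannot show whether the numbers pair the libraries, because a few high or low libraries can produce them. The labels do not say, so the block was run only as another setting. In the replicate block fit 14 of 226 miRNAs (6.19%) had an unadjusted p under 0.05, 2 of them members, and miR-150-5p stood at 0.98. Without Trained 2, 10 of 230 (4.35%) did, 7 higher and 3 lower in Trained, and 4 of the 10 were members. Members with under 40 reads in all (miR-150-3p, miR-155-5p and miR-223-3p) are limited by depth.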
